A study of Mus musculus with 20 samples.

Results

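The 59 genes described here carry names of cytosolic ribosomal proteins and were chosen by name, including 1 listed as a transcribed pseudogene, Rps4l. They are all genes whose symbol in the array's probe annotation is Rpl or Rps with a number and at most 1 letter a, l or x, together with Rpsa, Rplp0, Rplp1 and Rplp2. They had 88 of the 45281 probes on the array, and 59 of its 19057 named genes.

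Left and right atrial appendages of heterozygous mice were compared with those of wild-type littermates, in 4 groups of 5 Illumina bead arrays. All mice were of the CD1 strain and 12 weeks old. The wild-type left (LA wt), heterozygous left (LA het), wild-type right (RA wt) and heterozygous right (RA het) groups came from 5 mice of each genotype, with no treatment named, and the labels do not tie the left and right arrays of a mouse. The heterozygous mice carry 1 altered copy of a gene, and the labels do not describe the allele or the cells in which it acts. The genotype labels were not checked against array values here.

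A ribosome joins a small subunit, which reads the message, to a large subunit, which forms the peptide bond, and each subunit holds 1 copy of most of its proteins (named Rps for the small and Rpl for the large subunit). The genes are active in every cell, and their messages are among the most abundant of a cell. Their transcripts start with a C in a run of pyrimidines, the terminal oligopyrimidine tract, through which mTOR complex 1 and LARP1 govern their translation and stability. Heart muscle also makes a muscle-specific member, Rpl3l, which takes the place of Rpl3 in the large subunit. In these bulk tissue pieces, fewer cells of a type and less RNA per cell cannot be told apart.

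The starts of 6 member genes are printed because their probes carry the values described below: Rpl12 and Rpl26 had the lowest adjusted p-values between the sides, Rps25 the lowest p for a genotype-dependent side difference, Rps2 a probe with values in separate ranges, Rpl3l is the muscle paralogue, and Rps6 is the member that S6 kinase phosphorylates. Each line holds 60 bases of the gene's strand, 30 before the annotated start and 30 from it on, from RefSeq on build GRCm38.p6. Capitals mark CTTTT, a stretch with which such tracts often begin, or CCGGAAG, a core of ETS factor motifs, on either strand.
Rpl12: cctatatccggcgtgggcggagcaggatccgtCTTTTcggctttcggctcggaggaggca
Rpl26: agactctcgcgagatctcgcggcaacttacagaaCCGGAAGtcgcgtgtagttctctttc
Rps25: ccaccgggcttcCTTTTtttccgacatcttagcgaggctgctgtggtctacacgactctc
Rps2: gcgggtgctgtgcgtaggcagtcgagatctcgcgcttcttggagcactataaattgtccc
Rpl3l: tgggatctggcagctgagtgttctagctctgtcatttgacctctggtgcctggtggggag
Rps6: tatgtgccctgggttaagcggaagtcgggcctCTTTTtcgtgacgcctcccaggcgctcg
The windows lie at chr2:32961682-32961741, chr11:68901536-68901595, chr9:44407684-44407743, chr17:24720033-24720092, chr17:24727796-24727855 and chr4:86857338-86857397, with Rps6 on the minus strand and the other 5 on the plus strand. CTTTT stood in the windows of Rpl12, Rps6 and Rps25, and CCGGAAG in that of Rpl26. Neither stood in the windows printed for Rps2 and Rpl3l.

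Promoters of 48 member genes were in the sequence table, with 58 starts in all. CTTTT on the gene's strand stood in the 60 bases around a start of 9 of the 48 (18.8%), against 7.51% of all 27025 genes in the table. On either strand it stood in 11 (22.9%), against 15.0% of all genes, the first search being part of this one. CCGGAAG on either strand stood in the 300 bases from 250 before to 50 after a start of 22 genes (45.8%), against 9.93%. A run of 5 or more pyrimidines crossed the annotated start of 16 genes (33.3%), against 11.8%. These are matches of letters, not tested sites, and annotated starts can lie some bases from the used ones.

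The 59 genes matched RefSeq by their Entrez numbers with the same symbols. RefSeq lists 81 protein-coding genes that meet the naming rule, of which 58 had a member probe. The other member gene, Rps4l, is listed as a transcribed pseudogene. The members lie on 18 chromosomes, with at most 10 on 1 of them. Rps2 and Rpl3l are close neighbours on chromosome 17, with 4 genes between them, 1 of which is protein-coding.

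The deposited values are linear signal intensities that had already been background-subtracted and quantile-normalized, so that the whole range of values is the same on every array. A probe counts as detected on an array at a detection p under 0.05. Of the 88 member probes, 67 were detected on all 20 arrays and 11 on none. The 76 probes (53 genes) detected on at least 5 arrays were tested, among 20097 probes of 11154 named genes. Between 17316 and 19422 probes were detected per array, and pairs of arrays correlated between 0.947 and 0.99. Precision is set by the 5 arrays of a group. The atrial muscle markers Myl7, Nppa and Sln were detected on all 20 arrays, with signals of 27936 and more, whereas Myl2 of the ventricle ran from 6.9 to 33897, Adipoq of fat from 9.3 to 8120 and Ucp1 of brown fat from -11 to 907. RA het replicate 1 stood apart from the other arrays in the ribosomal protein genes, and many of the members' results are given with and without it.

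Rpl14, Rpl17, Rpl39l, Rpl6, Rps20 and Rps23 had no tested probe. The probe of Rpl39l, a paralogue of Rpl39 that is most active in the testis, was detected on 0 arrays, with signals between -7.7 and 9.0. The Rpl14 probe was detected on 4 arrays. In 5 of the 20 genes with several probes (Rpl29, Rpl37, Rplp2, Rps24 and Rpsa), 1 or more probes were detected on 0 arrays and another was tested. A probe with no signal therefore says little about its gene. Ribosomal protein genes also have many near-identical processed copies in the genome, and a probe may read such a copy, so each value here is that of a probe.

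Signals were floored at 16 and turned to log2, and differences between group means were fitted with limma over all 20 arrays, so every adjusted p for a group difference below is limma's. A probe is called changed at a Benjamini-Hochberg adjusted p under 0.05 over all 20097 tested probes. The 18 brightest members, with mean log2 levels of 14 or more, stood near the highest signal of the arrays, 38626. Within groups, the members varied less than other probes: the median of their SDs was 0.18 on the log2 scale (from 0.046 to 0.88, 76 probes), against 0.28 over all tested probes. That median SD was 0.43 for the 17 members with levels under 9, 0.17 for the 41 between 9 and 14 and 0.11 for the 18 at 14 or more.

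Ribosomal protein messages did not pass the test in any of the 6 comparisons, of the sides in each genotype and over both, of the genotypes on each side, and of the interaction. Their intervals lay within 1.5-fold either way more often than those of all tested probes, which were not matched to them for signal level. In the comparison of the sides over both genotypes, the 95% interval of the difference lay within that limit for 70 of 76 members (92.1%), against 76.9% of all tested probes. In the single comparisons this held for 62 (sides in wild type), 57 (sides in heterozygotes), 61 (genotypes in LA) and 61 (genotypes in RA), or 75 to 81.6% of the members against 56.5 to 62.8% of all probes. For the interaction it held for 45 (59.2%, against 36.4%). Of the 59 members with levels of 9 or more, 50 to 57 lay within the limit in the 5 comparisons other than the interaction.

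**Figure D1:**
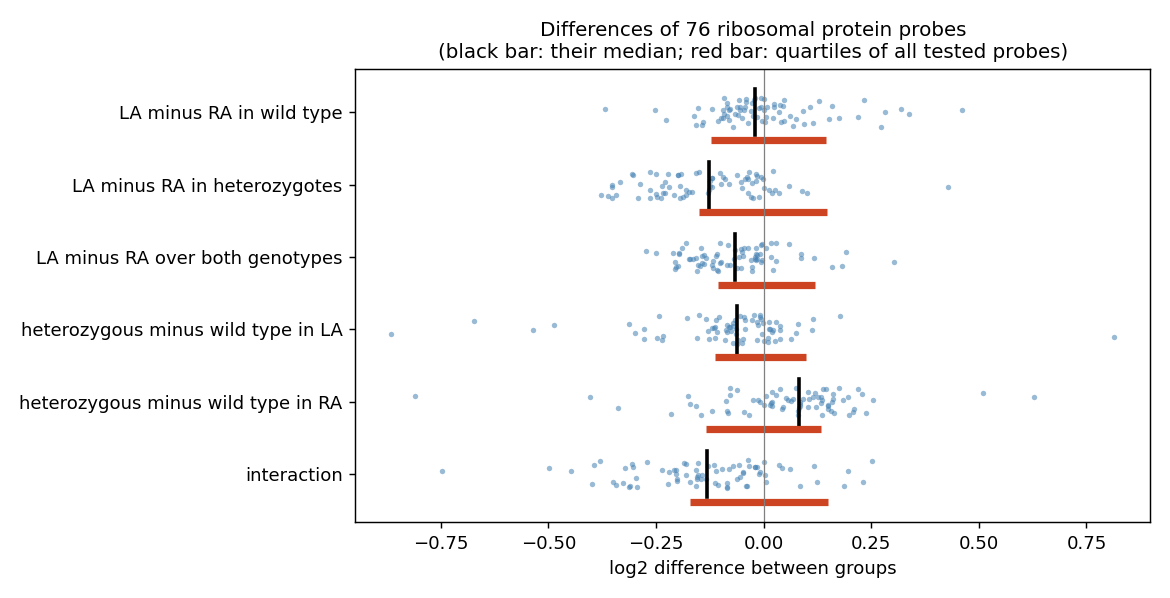
Differences between groups (x axis, log2) of the 76 tested ribosomal protein probes in the 6 comparisons (1 point a probe). The black bar is the members' median and the red bar spans the quartiles of all 20097 tested probes. In heterozygotes the members' median for LA minus RA is -0.13 and 66 points lie below 0. In the right atrium the median for heterozygous minus wild type is 0.082, and no point passed the test in any comparison.

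In the wild-type atria, no member differed past the threshold between left and right. Of the 76 members, 0 were called, where 3.1% of all probes were (624 of 20097), and 0 had an unadjusted p under 0.05, where 11.8% of all probes had. The members' median difference, LA minus RA, was -0.021 on the log2 scale, beside 0.011 for all tested probes (range -0.37 to 0.46), and 44 of 76 lay below 0 (47.5% of all). It took the other sign, 0.053 with 27 below 0, with the levels of Myl2, Adipoq and the mesothelial marker Upk3b as covariates, and was 0.0029 without LA wt replicate 4. Myl2 itself was at 6.9 to 106 in LA wt and 698 to 29383 in RA wt. A fit with this covariate therefore compares the wild-type sides at Myl2 levels they do not share, which is an extrapolation. In heterozygotes Myl2 was at 108 to 4000 in LA and 402 to 33897 in RA. The members with the smallest p were Rps21, a small-subunit protein, with -0.16 (SE 0.090, adjusted p = 0.571), and Rpl26, a large-subunit protein that also binds the p53 message, with -0.15 (SE 0.092, adjusted p = 0.593). They were followed by the Rpl23 probe ILMN_2946482 with -0.14, a dim probe of Rpl4 with 0.46 (SE 0.29) and Rpl32 with -0.12. In no member were the 5 LA arrays all above or all below the 5 RA arrays, against 4.73% of all probes.

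The Rps21 signals (ILMN_1240898) were 17578, 18460.4, 18369, 16286 and 16997 in LA wt and 20455, 18460.4, 19656, 19546.5 and 19546.5 in RA wt. The ranges met at 1 value, since the highest LA array and the lowest RA array had the same signal. In LA het they were 17493, 18369, 17907, 19186.5 and 18691, and in RA het 25476, 18854, 19884, 18082 and 18082.

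In the heterozygous atria more members were lower on the left, and fewer of them with 1 right array left out. Of the 76 members, 66 had a difference below 0, LA minus RA (86.8%, against 50.7% of all probes). None was called, where 2.34% of all probes were (471 of 20097). An unadjusted p under 0.05 was reached by 17 members (22.4%, against 12.3% of all probes), 16 of them lower in LA (6.05% of all probes) and 1, Rpl22, higher (6.29% of all). The members' median was -0.13, beside -0.0036 for all probes.

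The first of these by p was Rpl12, a protein at the base of the stalk that binds elongation factors. Its signals (ILMN_2874228) were 9164, 9966, 9061, 10416.5 and 10194 in LA het and 16443.5, 12175, 11980.5, 12624 and 10127 in RA het. The highest signal of all 20 arrays was that of RA het replicate 1, and the lowest RA array lay among the LA arrays. In LA wt the signals were 11980.5, 11228, 9577, 8988 and 10219, and in RA wt 13729.6, 10990.1, 10786, 11461 and 10354, and these groups overlapped too. The difference in heterozygotes was -0.36 (SE 0.12, adjusted p = 0.149), a fold of 1.28 with a 95% interval of the log2 difference from -0.61 to -0.11. In wild type it was -0.14 (SE 0.12, adjusted p = 0.774).

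Rps16, a small-subunit protein, had signals (ILMN_1227972) of 6919, 7566, 7196, 6645 and 6645 in LA het and 12175, 7946, 9061, 8595 and 7485 in RA het. The LA array at 7566 lay above the lowest RA array, and RA het replicate 1 again stood highest. The difference was -0.35 (SE 0.12, adjusted p = 0.177). Next came the Rpl23 probe ILMN_1238227 with -0.33 (adjusted p = 0.199), Rpl26 with -0.24 (adjusted p = 0.246) and the bright Rps19 probe ILMN_2862280 with -0.26 (adjusted p = 0.246).

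The groups did not overlap in 4 of the 76 members (5.26%), all lower in LA, where 3.7% of all probes did not overlap and 1.87% did so with LA lower. They were Rpl23 (ILMN_1238227), Rps15, Rps19 (ILMN_2862280) and Rps7, named after their values were seen. Their gaps were small: the highest LA and lowest RA signals were 664 and 667 for Rpl23, 3908 and 3954 for Rps15, 14266 and 14634 for Rps19, and 13685 and 13729.6 for Rps7. The other probes of Rpl23 had smaller differences, and only the brightest had the other sign. The brightest, ILMN_2946482, had a difference of 0.090, another bright one, ILMN_2742807, of -0.035, and the dim ILMN_2685675 of -0.19.

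Rpl22, a large-subunit protein that cells can do without but developing T cells need, was the member higher in LA. Its signals (ILMN_2659229) were 517, 455, 768, 654 and 612.5 in LA het and 339, 493, 441, 332 and 669.7 in RA het. The groups overlapped, with 2 RA arrays above the lowest LA array. The difference was 0.43 (SE 0.20, adjusted p = 0.391), and in wild type 0.18 (adjusted p = 0.863).

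RA het replicate 1 stood apart from the other 19 arrays in these genes. The median deviation of the 76 members from their own means over the arrays was 0.34 on it (log2), against -0.013 to 0.050 on the other RA het arrays and -0.17 to 0.053 on the 15 arrays of the other groups. It held the highest of all 20 values for 46 members (60.5%), where it did so for 15.9% of all tested probes, and the lowest for 1 member, where it did so for 15.5% of all. Among the 5 RA het arrays it was highest for 55 members (72.4%, against 27.7%).

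**Figure D2:**
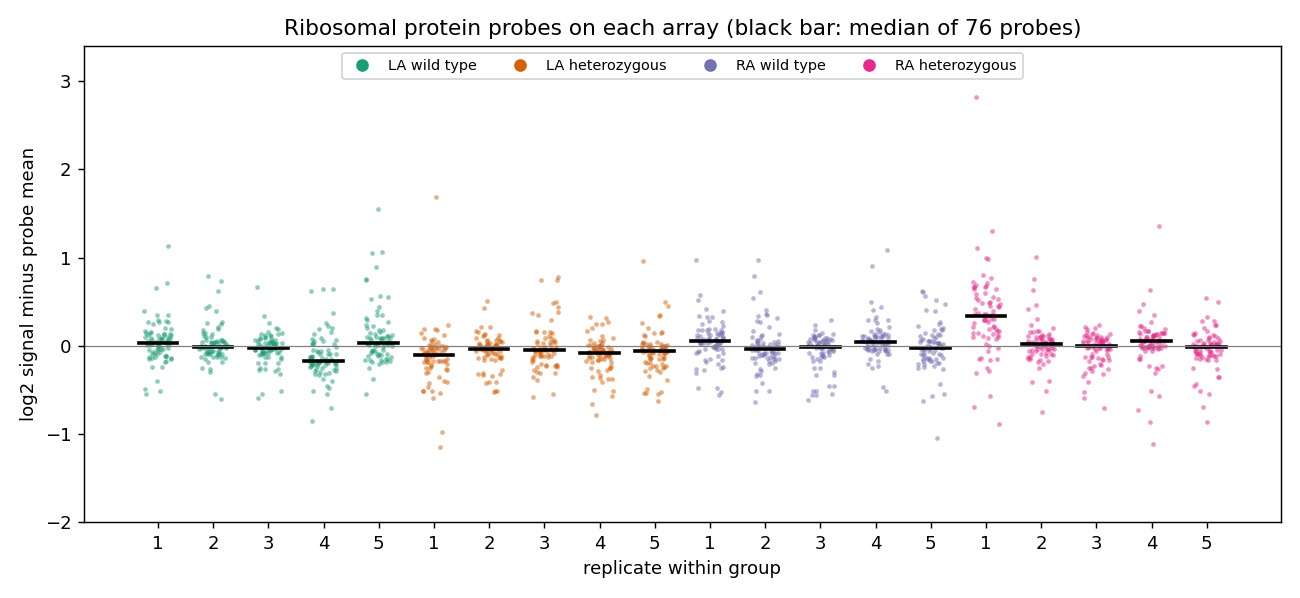
Deviation of each tested ribosomal protein probe from its own mean over the 20 arrays (y axis, log2) on each array (x axis, replicate number, coloured by group), with a black bar at the median of the 76 probes. The bar of RA heterozygous replicate 1 stands at 0.34, and those of the other 19 arrays lie between -0.17 and 0.053.

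The members that stood highest on it over the other RA het arrays had dim, middling and bright probes. Rpl19, a large-subunit protein, was at 6307 there and at 3025 to 3585 on the other 4, a log2 difference of 0.96. Rpl36a, an X-linked large-subunit gene, was at 9292 against 5005 to 5999. A bright probe of Rpl31 was at 30937 against 18565 to 21333. By level, the median deviation on this array was 0.33 for members under 9, 0.36 for those from 9 to 14 and 0.14 for those at 14 or more.

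Other members went the other way on the same array. The brightest Rpl23 probe, ILMN_2946482, was at 24265, the lowest of all 20 arrays and below the 29274 to 31521 of the other RA het arrays. Rplp1, a stalk protein, was at 32528 against 37378 to 38626. Rpl22 was at 339, second lowest of the 20, and Rps15a, a small-subunit protein, at 34.1 against 47.2 to 84.3.

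The same array had the fewest detected probes, 17316. Its level of cardiomyocyte markers was the lowest of the 20 arrays at -0.22 (median deviation of 10 tested of 11 genes on the list, 1 probe a gene; the ranges were -0.035 to 0.095 in LA wt, -0.085 to 0.11 in LA het, -0.011 to 0.12 in RA wt and -0.22 to 0.087 in RA het). Adipocyte markers stood at 2.12 (5 of 8 genes tested; -1.79 to 0.20 in LA wt, -1.37 to 3.28 in LA het, -1.79 to 2.26 in RA wt and -1.56 to 2.12 in RA het). Of its defining genes, Adipoq was at 4794 and the brown fat gene Ucp1 at 447. Lymphocyte markers stood at 0.85 (5 of 12 tested; -0.45 to 0.55, -0.45 to -0.14, -0.36 to 0.87 and -0.14 to 0.85 in the same order of groups) and ventricular markers at 1.72 (3 of 4 tested; -1.19 to 0.21, -1.07 to 0.82, -0.72 to 2.03 and -0.55 to 2.11). The mitochondrial ribosomal proteins, which are not members, stood at 0.23 there. Fits with the Myl2, Adipoq and Upk3b levels as covariates stand beside the comparisons, and the part of the lymphocyte markers in the members' values was not tested.

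Without that array the side difference of the members in heterozygotes was smaller. The median moved from -0.13 to -0.085, 55 of 76 members lay below 0, and 3 reached an unadjusted p under 0.05 (11.3% of all probes did). None was called (2.33% of all were). Rpl12 went to -0.26 (SE 0.11, adjusted p = 0.308), Rps16 to -0.24 (adjusted p = 0.353), the Rpl23 probe ILMN_1238227 to -0.22, the bright Rps19 probe to -0.19 and Rpl22 to 0.33 (adjusted p = 0.64). Rpl19 went from -0.377 to -0.185. Without the 4 arrays whose Ucp1 signal was over 100 (LA het replicates 1, 2 and 4 and RA het replicate 1), a choice made after the data were seen, the median was -0.058 with 0 members called (1.19% of all probes were) and 4 at an unadjusted p under 0.05 (9.0% of all). With the levels of Myl2, Adipoq and Upk3b in the fit, it was -0.085, with 53 below 0, 0 called and 1 at an unadjusted p under 0.05 (6.91% of all).

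**Figure D3:**
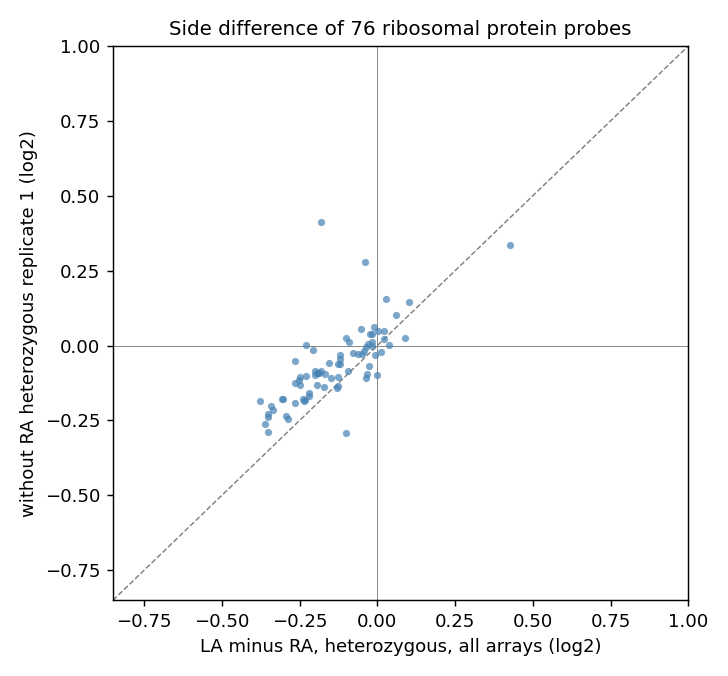
Difference LA minus RA in heterozygotes of the 76 members, with all arrays (x axis, log2) and without RA heterozygous replicate 1 (y axis, log2). The dashed line marks equal values. Most points on the left lie above the line, and the median moves from -0.13 to -0.085.

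Over both genotypes, with 10 arrays a side, members again tended to lie a little lower on the left. Of the 76, 0 were called, where 7.05% of all probes were, and 13 had an unadjusted p under 0.05 (17.1%, against 17.2% of all probes), 12 of them lower in LA (7.91% of all). Below 0 lay 62 members (81.6%, against 48.9% of all probes), and the members' median was -0.067, beside 0.0044 for all. Counts below 0, here and in the other comparisons, are not of independent probes. Some genes have several probes, and the members' median pairwise r over the 20 arrays was 0.22, or 0.11 without RA het replicate 1. Without RA het replicate 1 the median was -0.037, with 52 below 0 and 7 at an unadjusted p under 0.05 (18.0% of all probes). With the levels of Myl2, Adipoq and Upk3b in the fit, it was -0.0074, with 41 below 0 (50.7% of all) and 1 at an unadjusted p under 0.05 (10.2% of all). In wild type the sides shared no level of Myl2, as given above, so this fit extrapolates there. The lowest adjusted p-values of any member stood here: Rpl26 had -0.20 (SE 0.065, adjusted p = 0.0824) and Rpl12 -0.25 (SE 0.084, adjusted p = 0.0873). Rpl32 (-0.17), Rps19 (-0.18) and Rps16 (-0.20) followed, with adjusted p-values from 0.139 to 0.206. Without RA het replicate 1, Rpl26 had -0.17 (adjusted p = 0.11) and Rpl12 -0.20 (adjusted p = 0.116). Which setting of the fit was used decided whether Rpl26 and Rpl12 were called: Rpl26 was with a pseudocount of 50 (adjusted p = 0.0471), both were with a trended, robust variance (0.0323 for Rpl26), and Rpl12 was without RA het replicate 5 (0.0372).

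The Rpl26 signals (ILMN_2737941) were 11668, 11885, 12009.7, 11885 and 13347 in LA wt and 10492, 12663, 10874, 11330.1 and 12568 in LA het. In RA wt they were 13464, 12175, 13384, 13855 and 14768.5, and in RA het 16081, 13087, 11925, 14266 and 13166. The sides overlapped in both genotypes. With RA het replicate 1, the highest of the 20, left out, the difference in heterozygotes was -0.18 (SE 0.086, adjusted p = 0.447).

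Small- and large-subunit genes had medians of the same sign over both genotypes. It was -0.055 for the 46 Rpl probes, 36 of them below 0, and -0.11 for the 30 Rps probes, 26 of them below 0. In wild type the medians were -0.0021 for Rpl and -0.056 for Rps, and in heterozygotes -0.13 and -0.14.

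Heterozygous and wild-type mice showed no called difference in these genes on the left. Of the 76 members, 0 were called and 2 had an unadjusted p under 0.05 (2.63%, against 4.52% of all probes); 0.00995% of all probes were called (2 of 20097). The median difference, heterozygous minus wild type, was -0.063, beside -0.0048 for all probes, with 56 members below 0 (73.7%, against 51.3%). Without LA wt replicate 5 the median was -0.028, with 52 below 0. The groups overlapped in all 76 members, where 0.846% of all probes did not overlap. The 2 members were the Rps2 probe ILMN_2946616 and the dim Rpl4 probe ILMN_2631003. After them by p came Rps25, a small-subunit protein used in initiation at internal entry sites, with -0.28 (SE 0.14, adjusted p = 1), a dim Rpl21 probe with -0.54 and a dim Rps24 probe with -0.30.

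On the right, 0 of 76 members were called, where 0.00995% of all probes were, and 3 had an unadjusted p under 0.05 (3.95%, against 5.32%). The median was 0.082, beside 1.42e-06 for all probes, and 20 members lay below 0 (26.3%, against 49.8%). Without RA het replicate 1 the median was 0.014, and 1 member had an unadjusted p under 0.05 (3.33% of all probes). The smallest p belonged to the Rps24 probe ILMN_2625060, which had signals of 174, 169, 132, 208 and 174 in RA wt and 434, 216, 229, 172 and 222 in RA het. Replicate 1 was the highest of the 20 arrays and the other values overlapped, and the difference was 0.51 (SE 0.21, adjusted p = 0.835), or 0.30 without that array (adjusted p = 1). The brightest Rps24 probe, ILMN_3126986, had 0.064. Rpl28 (0.16), Rps10 (0.20) and the Rpl27a probe ILMN_1227653 (0.25) followed Rps2, with adjusted p = 0.835 for each. The 3 values were 0.14, 0.10 and 0.11 without RA het replicate 1.

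The side difference did not depend on genotype past the threshold in any member. Of the 76, 0 were called for the interaction (0.00995% of all probes were), and 0 had an unadjusted p under 0.05, where 2.98% of all probes had. The median was -0.13, beside -0.0070 for all, and 63 members lay below 0 (82.9%, against 51.3%). Without RA het replicate 1 the median was -0.063, with 57 below 0 (54.0% of all probes) and 0 called. Rps25 had the lowest p: its signals (ILMN_2887619) were 4085, 3585, 3954, 3279 and 4753 in LA wt and 4441, 3403, 3141, 3767 and 4311.5 in RA wt, with wide overlap. In LA het they were 3987, 2803, 3450.3, 3474 and 2573, and in RA het 4917, 3689.6, 3891, 4085 and 4056, where 1 LA array lay within the RA range. The interaction was -0.40 (SE 0.19, adjusted p = 1), or -0.33 without RA het replicate 1. Rpl27a had values of -0.38 and -0.39 on the probes ILMN_1227653 and ILMN_2882059, while its brightest probe, ILMN_2641304, had -0.019. Without that array these 3 were -0.24, -0.26 and 0.035. The brightest Rpl23 probe had 0.23 and the dim Rpl4 probe -0.75 (SE 0.41), all with adjusted p = 1. Comparisons that share groups share arrays, so their values are not independent of each other.

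Rps2, a small-subunit protein near the channel through which the message enters, had the lowest genotype difference of the members on both sides, on 1 of its 2 probes. The signals of ILMN_2946616 were 16359.7, 12448, 11885, 4615 and 11028 in LA wt and 5257, 5194, 9744, 4739 and 4867 in LA het. They were 10019, 9514, 5460.5, 15939 and 9966 in RA wt and 6173, 10354, 4591, 4127 and 4127 in RA het. The 20 values fell into separate ranges, 10 from 4127 to 6173 and 10 from 9514 to 16359.7, with a gap of 0.62 on the log2 scale. The lower range held 1 array of LA wt, 4 of LA het, 1 of RA wt and 4 of RA het, so the genotypes overlapped on both sides.

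The fitted difference, heterozygous minus wild type, was -0.86 in LA (SE 0.34, fold 1.82, adjusted p = 0.995) and -0.81 in RA (SE 0.34, adjusted p = 0.835). The 95% intervals ran from -1.57 to -0.16 and from -1.51 to -0.11. Each group held 4 arrays in 1 range and 1 in the other, so the group means mix the ranges.

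The other Rps2 probe did not carry this difference. The signals of ILMN_2717549 were 26218, 21574, 20222, 15714 and 24376 in LA wt and 18460.4, 18949.5, 26218, 19546.5 and 19729.8 in LA het. They were 21701, 23876, 18258, 23353 and 17493 in RA wt and 21800, 24376, 17907, 20222 and 17157 in RA het. The groups overlapped, with differences of -0.062 in LA (95% interval -0.37 to 0.24) and -0.045 in RA (-0.35 to 0.26). This probe is the brighter of the pair.

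Among wild-type arrays, LA replicate 4 and RA replicate 3 were the ones in the lower range of ILMN_2946616, and among heterozygous arrays LA replicate 3 and RA replicate 2 were the ones in the upper range. Across all tested probes, the deviations of the first pair from their group means correlated at 0.38 and those of the second pair at 0.44. For each of these arrays this was the highest correlation with any array of the other side and the same genotype. The pairs were looked at after the values were seen, the probes are not independent, and whether a pair came from 1 mouse is not in the labels.

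**Figure D4:**
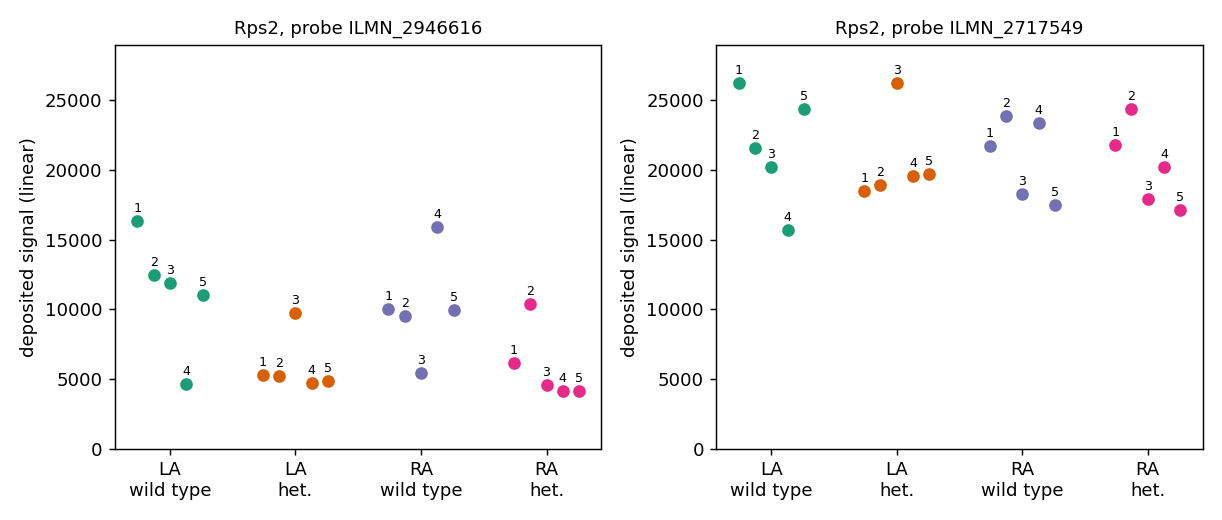
Deposited signal (y axis, linear, from 0) of the 2 Rps2 probes on the 20 arrays by group, with replicate numbers above the points. On ILMN_2946616 the points fall at 4127 to 6173 and at 9514 to 16359.7, with 1, 4, 1 and 4 arrays in the lower range in LA wt, LA het, RA wt and RA het. On ILMN_2717549 the groups overlap without such a gap.

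Rpl3l, the muscle paralogue of Rpl3, was detected on all arrays and varied most on the right. Its signals (ILMN_2649810) were 3891, 3366, 2878, 4466 and 3805 in LA wt and 4056, 3995, 3341, 3524 and 3824.5 in LA het. They were 2477.5, 6763, 3450.3, 2497 and 1669 in RA wt and 3926, 2045, 2822, 8863 and 2562 in RA het. The left arrays kept to a narrow range within that of the right arrays, where RA wt replicate 2 and RA het replicate 4 stood highest. LA minus RA was 0.28 in wild type (SE 0.34, adjusted p = 0.879) and 0.10 in heterozygotes (adjusted p = 0.948), and the genotype differences were 0.038 in LA and 0.22 in RA (adjusted p = 1 and 0.909). The wild-type value ran from 0.071 to 0.58 with single arrays left out.

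The 2 right arrays with the highest Rpl3l were also those with the highest Myl2, a ventricular myosin light chain, at 29383 and 33897. Within the 10 RA arrays log2 Rpl3l correlated with log2 Myl2 at r = 0.81 (permutation p = 0.0039, adjusted p = 0.0234 over 6 relations) and rho = 0.73 (permutation p = 0.0206, adjusted p = 0.124). Without the 2 arrays farthest from the median of Myl2, r was 0.44, so the relation rests on those arrays in part. Within the 10 LA arrays r was 0.012 (permutation p = 0.972). There Myl2 was at 4000 on LA het replicate 2 and at 6.9 to 237 on the other arrays, against 402 to 33897 in RA. The left r thus does not cover the range of the right and cannot show whether the relation differs by side. These relations were chosen after the values were seen. With the Myl2, Adipoq and Upk3b levels as covariates, Rpl3l had LA minus RA of 1.27 in wild type (SE 0.39, adjusted p = 0.153) and 0.39 in heterozygotes (adjusted p = 1). Its genotype differences were -0.79 in LA and 0.10 in RA, and none was called. In wild type the sides shared no level of Myl2, so the 1.27 is an extrapolation.

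Rpl3 itself, which lines the site of peptide bond formation, spanned 13906 to 18691 over the 20 arrays. Its lowest value was that of RA het replicate 4, the array highest in Rpl3l and Myl2, and its highest was shared by LA het replicate 4 and RA het replicate 5. Rpl3 correlated with Myl2 at r = -0.58 in RA (permutation p = 0.0774, adjusted p = 0.168) and -0.049 in LA (adjusted p = 0.972). With Rpl3l it correlated at r = -0.58 in RA (permutation p = 0.0842, adjusted p = 0.168) and -0.50 in LA (permutation p = 0.14, adjusted p = 0.21), so none of these 4 passed. LA minus RA of Rpl3 was -0.095 in wild type and 0.022 in heterozygotes, and its genotype differences were 0.039 in LA and -0.078 in RA.

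**Figure D5:**
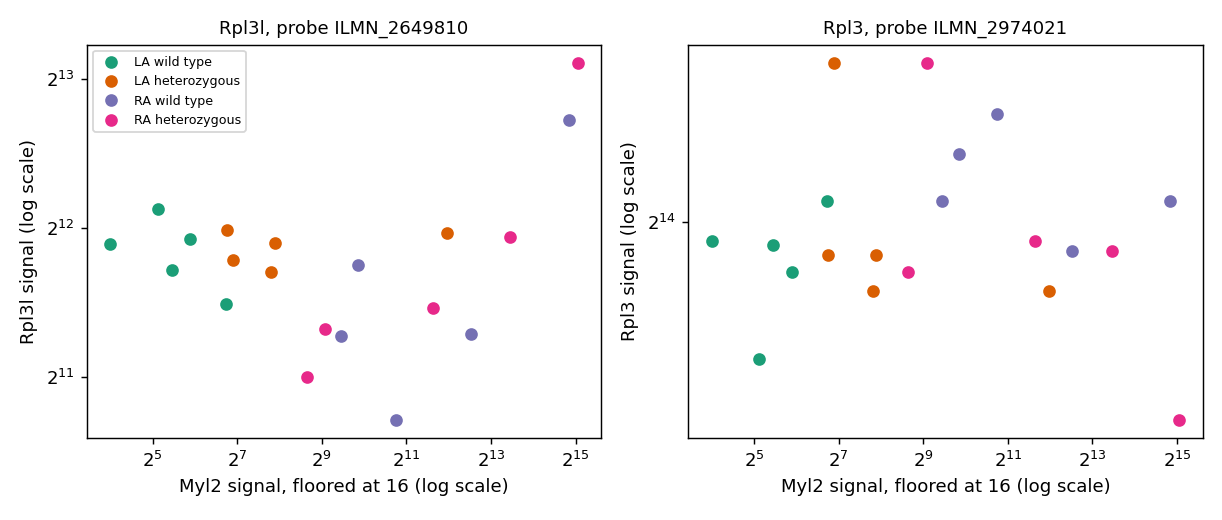
Signals of Rpl3l (left) and Rpl3 (right) against that of Myl2 on the same array (all axes on a log scale, Myl2 floored at 16), coloured by group. The RA arrays with Myl2 at 29383 and 33897 hold the highest Rpl3l signals, 6763 and 8863. The LA arrays lie between 2878 and 4466 in Rpl3l. Their Myl2 was at 4000 on LA het replicate 2 and at 6.9 to 237 on the others.

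Members named for their roles whatever their values did not differ past the threshold. Rps6, the S6 kinase target, ran from 1459.5 to 2919.9 in LA wt, 1866 to 2256 in LA het, 1586 to 3008 in RA wt and 1784.5 to 2831 in RA het. Its LA minus RA was -0.25 in wild type (SE 0.19, adjusted p = 0.722) and -0.17 in heterozygotes, with wide overlap. Rps4x, an X-linked small-subunit gene, ran from 10592.5 to 14474.5 over all arrays, with LA minus RA of -0.086 in wild type and -0.13 in heterozygotes (adjusted p = 0.833 and 0.611). Rps27l, a p53-induced paralogue of Rps27, ran from 6817 to 11068, the highest on RA het replicate 1, with side differences of 0.061 and -0.052. Without that array the latter was 0.054, of the other sign. Rpl36a had side differences of 0.047 and -0.25 (adjusted p = 0.97 and 0.463), the latter with RA het replicate 1 at 9292, and -0.10 without it.

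The stalk protein Rplp0 was tested on a probe (ILMN_2744356) with signals from 174 to 395, the highest on RA het replicate 1, and had side differences of 0.075 in wild type and -0.23 in heterozygotes (adjusted p = 0.955 and 0.633). Its genotype differences were -0.11 in LA and 0.20 in RA (adjusted p = 1 and 0.841). The heterozygous side difference was -0.10 and the RA genotype difference 0.069 without that array. Rpsa, the laminin receptor protein of the small subunit, was read by a probe with signals from 9.8 to 37.8 that was detected on 18 arrays. All of its differences were between -0.15 and 0.042.

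Of the tested members, 9 probes were detected on some arrays only, and most of their values lay near the floor. They were 3 probes of Rpl21, detected on 6, 19 and 17 arrays, 1 each of Rpl23 (15), Rpl4 (19), Rplp0 (10), Rps19 (10) and Rpsa (18), and the probe of the pseudogene Rps4l (8). Differences of such probes depend on the floor, and none passed the test. The Rpl4 probe ILMN_2631003 had signals of 42.9, 35, 34.4, 54.7 and 74.4 in LA wt and 15.8, 34.5, 39.7, 20.6 and 45.2 in LA het. Its groups overlapped, with a difference of -0.67 (SE 0.29, adjusted p = 1). The bright Rpl4 probe ILMN_2874507 had -0.071.

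The dim Rps19 probe ILMN_2754355 had signals of 10.8, 9.5, 5.2, 12.7 and 7.9 in LA wt and 75.4, 31.4, 12.7, 29.2 and 11.7 in LA het. They were 19.3, 17.4, 13.3, 43.6 and 7.7 in RA wt and 165, 20.5, 18.9, 32.4 and 4.1 in RA het. The highest were RA het replicate 1 and LA het replicate 1, with Adipoq at 4794 and 8120. The genotype differences were 0.81 in LA (SE 0.52, adjusted p = 1) and 0.63 in RA (adjusted p = 0.841), while the bright probe of Rps19, the gene most often mutated in Diamond-Blackfan anaemia, had -0.090 and 0.080. Without RA het replicate 1 the RA difference of the dim probe was 0.036. Its LA minus RA in heterozygotes went from -0.18 to 0.41 without that array. With the levels of Myl2, Adipoq and Upk3b in the fit, its genotype differences were -0.16 in LA and 0.55 in RA.

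Other genes of the same system were tested from lists chosen for their function. The lists were drawn up with earlier results of these data known, so calls on them are not independent of those results. Of translation factors and other messages with the same tract at their start, 16 of 20 genes were tested. In each of the 6 comparisons 0 were called, where 0.00995 to 7.05% of all probes were. Their smallest p was that of Eif3h, an initiation factor subunit, with -0.53 for heterozygous minus wild type in LA (SE 0.24, adjusted p = 1). Their median over both genotypes, LA minus RA, was 0.013, with 8 of 16 below 0 (48.9% of all probes). Of ribosome assembly genes, 30 of 36 were tested and 0 were called in the same 6 comparisons. Over both genotypes their median, LA minus RA, was -0.028, with 18 of 30 below 0 (48.9% of all probes). Pes1, which processes ribosomal RNA of the large subunit, had -0.18 (SE 0.064, adjusted p = 0.107), and Nmd3, which exports the large subunit from the nucleus, had an interaction of -0.54 (SE 0.17, adjusted p = 1).

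Of 15 tested genes of mTOR and Myc control (20 on the list), 1 was called, in all 3 comparisons of the sides (where 3.1% of all probes were in wild type, 2.34% in heterozygotes and 7.05% over both). Ddit4l, an inhibitor of mTOR complex 1, had signals of 612, 750.3, 774, 644 and 902 in LA wt and 594, 338, 407, 407 and 620 in LA het. They were 58.9, 59.6, 54.2, 41.5 and 40.4 in RA wt and 96.2, 35.3, 79.5, 122 and 51.9 in RA het. All 10 LA arrays stood above all 10 RA arrays. Ddit4l was higher in LA by 3.86 on the log2 scale in wild type (SE 0.26, fold 14.5, adjusted p = 1.98e-08), by 2.71 in heterozygotes (fold 6.55, adjusted p = 3.93e-06) and by 3.29 over both (SE 0.19, adjusted p = 4.76e-10). Its interaction was -1.15 (SE 0.37, adjusted p = 1) and did not pass. Mlst8, a subunit of both mTOR complexes, had 0.18 over both genotypes (adjusted p = 0.105).

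Of the 76 mitochondrial ribosomal protein genes on the array list, 73 were tested, and 1 was called, over both genotypes, where 7.05% of all probes were. Mrps6, of the small mitochondrial subunit, was higher in LA over both genotypes by 0.44 (SE 0.096, fold 1.36, adjusted p = 0.00576), with 0.46 in wild type (adjusted p = 0.0817) and 0.42 in heterozygotes (adjusted p = 0.129). The wild-type sides shared no level of Myl2. With the Myl2, Adipoq and Upk3b levels in the fit, Mrps6 had 0.29 over both genotypes and was not called (adjusted p = 0.602). Its signals were 4482, 5235, 5064, 4930.1 and 4229.7 in LA wt and 4975, 4725, 4813, 4299.5 and 5251 in LA het. They were 4473.5, 2433, 3904, 3119 and 3821 in RA wt and 3054, 3737, 3771, 4114 and 3320.2 in RA het. The lists' medians over both genotypes had opposite signs, 0.057 for the mitochondrial (23 of 73 below 0) and -0.067 for the cytosolic set (62 of 76 probes). Of all probes, 48.9% lay below 0 there, and the difference between the lists was not tested. In wild type the mitochondrial median was 0.10 (8 of 73 below 0, against 47.5% of all probes). In heterozygotes it was -0.024 (43 of 73, against 50.7%), of the same sign as the cytosolic -0.13. For heterozygous minus wild type in RA the mitochondrial median was 0.12 with 9 of 73 below 0 (49.8% of all probes), and 0 were called (0.00995% of all). The heterozygous side difference and this one both include RA het replicate 1. The level of these genes was 0.23 there, against -0.082 to 0.096 on the other RA het arrays. Mitochondrial medians without that array were not computed.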

How the data were processed

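Biotin-labelled cRNA from the total RNA of 20 atrial appendages was measured on Illumina bead arrays, per the labels' protocols. As deposited, the values are linear intensities for 45281 probes an array. The authors' intensities had been background-subtracted, since 33.72 to 33.87% are negative, and quantile-normalized, since the arrays' ranked values differ by at most 1.8. The software that did this is not given in the sources used here. Detection p-values, as deposited, are stored as 1 minus p and were converted.

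Intensities were floored at 16 and taken to log2 with no further normalization. Testing, with limma 3.58.1 in R 4.3.3, covered probes detected (p under 0.05) on 5 or more arrays: lmFit with 4 group means, eBayes, and Benjamini-Hochberg adjustment over all 20097 tested probes in each of 6 comparisons. The procedure was tested on simulated data. No paired fit was used as the main one, because replicate numbers are not said to mark mice. Probes with 1 symbol in the platform annotation are named (34885), and those with several (18) or none (10378) were tested unnamed.

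The members and lists were chosen with earlier results of these data known. Named by rule were the 5 member probes of smallest p in each comparison, 10 members and all partly detected members whatever their values, and, of each list, called genes and 1 not called. Rpl19, Rpl31, Rplp1, Rps15, Rps15a, Rps7, the second probes shown and the relations with Myl2 were chosen after values were seen. Other floors, filters, normalization, variance settings, covariates, a replicate block and left-out arrays were tried as alternatives. The gene altered in the heterozygous mice is not reported here.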

Additional observations from a re-analysis of the deposited data

Results flagged for a closer look

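In groups of 5 arrays, an array was looked at again where its gap to the nearest of the others was over 0.71 of the group's range. This was met by 15 of 100 groups (24 probes and the members' median level, each in 4 groups). Chance gives about 1 in 20 for independent groups of normal values. That rate is no yardstick here, since the probes share arrays and many were chosen for a small p. The LA wt group of the dim Rps19 probe lay wholly at the floor and could not be flagged. The probes are the named ones and 5 added after values were seen.

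The members' median deviation was high on RA het replicate 1, at 0.339 against -0.0126 to 0.0497 on the other 4. The same array was high for Rpl27a ILMN_1227653 (16515.7 against 9514 to 10559), Rpl23 ILMN_1238227 (1068.2 against 667 to 755), Rps21 (25475.7 against 18082 to 19884), Rps19 ILMN_2862280 (19085.8 against 14634 to 15410.2) and Rps10 (10300.1 against 7128 to 7517). It was low for Rpl23 ILMN_2946482, at 24265 against 29274 to 31521. LA wt replicate 4 was low in the members' median, at -0.169 against -0.0223 to 0.0347, and in Rps19 ILMN_2862280, at 12252.1 against 14125 to 14909.9.

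LA het replicate 3 was high on both Rps2 probes, at 9743.9 against 4739 to 5257 on ILMN_2946616 and at 26217.9 against 18460.4 to 19729.8 on ILMN_2717549. Rpl26 was high on LA wt replicate 5, at 13347 against 11668 to 12009.7. Rps6 was low on RA wt replicate 1, at 1586.2 against 2516 to 3008. Rpl3 was high on LA het replicate 4, at 18690.8 against 15479.5 to 15938.7. The dim Rps19 probe ILMN_2754355 was high on RA wt replicate 4, at 43.6 against 7.7 to 19.3, and most of those values are near the floor.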

How the results depend on the processing

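Under 33 other settings, 20 of which left out 1 array, the number of members called stayed at 0 in 5 of the 6 comparisons. In the sides over both genotypes it was 1 with a pseudocount of 50 (Rpl26), 2 with a trended and robust variance (Rpl26 and Rpl12) and, with single arrays left out, 0 to 1, the 1 being Rpl12 without RA het replicate 5. The members' medians moved by less than 0.0883, the SD between arrays of a group, pooled over the groups. That SD was 0.148 in RA het and 0.026 to 0.083 in the others. The pooled SD is larger than several of the medians, so moves below it can be large beside them. In wild type the median side difference ran from -0.038 to 0.053 and so took both signs. In heterozygotes it ran from -0.17 to -0.058, over both genotypes from -0.096 to -0.0074, for genotype in LA from -0.076 to -0.028, in RA from 0.014 to 0.11, and for the interaction from -0.17 to -0.048. The value nearest 0 over both genotypes came from the extrapolating fit with the Myl2, Adipoq and Upk3b levels as covariates. Mrps6 was not called with them (0.29, adjusted p = 0.602 by limma). The 41 differences followed by name through all settings kept their signs. Other named differences were followed only without RA het replicate 1 and with the covariates, where some took the other sign (Rps27l, the dim Rps19 probe, Rpl3l and the brightest Rpl27a probe, as given above). The members' adjusted p-values stayed above the threshold, except for Rpl26 and Rpl12 as above. Those of Ddit4l between the sides stayed below it in all settings, at 0.00211 or less. Mrps6 over both genotypes ran from 0.00101 to 0.602. Within a genotype its lowest were 0.00942 in wild type and 0.0487 in heterozygotes.

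Same-numbered left and right arrays of a genotype correlated in their deviations from the group means between -0.41 and 0.34, with 4 of 10 pairs over 0.1, so the numbers were not read as pairs. With a block on these numbers, 0 members were called in each comparison, and 279 instead of 471 of all probes were called for the sides in heterozygotes. Since the numbers are not known to mark mice, that fit cannot show what a true pairing of the atria would give. Dim probes near the floor limit what these arrays can resolve.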
